A study of Mus musculus with 12 samples.

Results

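The precursor of miR-140 yields a strand from each side of its hairpin, and both strands have a row on the mouse miRNA array examined here, mmu-miR-140 (miR-140) for the annotated guide strand and mmu-miR-140* (miR-140*) for the star strand. These 2 of the 710 rows were taken by name. The miRNA was chosen by the measured intensity of its star row, which is among the brightest of the array, so the high intensity of miR-140* is given as a description only. The difference between genotypes was not used for the choice. The arrays were hybridized with total RNA from pelleted blood cells of 12 mice of the 129/SV strain, 6 with a deletion of Tff2 (Tff2-KO) and 6 wild-type (WT), with 3 males and 3 females of each genotype and 1 array per mouse. Tff2 encodes a trefoil peptide that the mucosa of the digestive tract secretes. The deleted line came from earlier work whereas a commercial breeder supplied the controls, so that origin and genotype cannot be told apart, and the ages of the mice are not given in the sources used here. The array carries no probe for an mRNA, and the loss of Tff2 was not checked with it.

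A miRNA hairpin is cut into a duplex of 2 short strands. The strand that is kept in an Argonaute protein pairs with target mRNAs mainly through its seed, which is bases 2 to 8 counted from the 5′ end, while the other strand is mostly degraded. In the older nomenclature used on the array the asterisk marks the strand that was taken for the minor one. miR-140 is now named miR-140-5p and miR-140* is miR-140-3p. The mouse gene Mir140 lies within Wwp2, which encodes a ubiquitin ligase, and the miRNA is best known from cartilage, where the transcription factor Sox9 drives it and where mice without it have skeletal growth defects.

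The hairpin is shown because it holds both strands. RefSeq places it at chr8:107551244-107551313 on the plus strand of GRCm38.p6, between the protein-coding genes Nob1 and Psmd7 and inside Wwp2. The capitals mark miR-140-3p, the sequence of the miR-140* row, which lies near the 3′ end of the hairpin at chr8:107551288-107551308.
Mir140 hairpin: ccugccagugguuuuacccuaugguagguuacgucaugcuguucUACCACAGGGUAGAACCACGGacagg
The mature star strand is printed below beside miR-497b, the one other mouse miRNA in the RefSeq table with the same bases 2 to 8, which capitals mark. miR-497b lies at chr11:70234763-70234786 on the minus strand and has no row on the array, so no other row of the array shares the seed of miR-140* among the miRNAs of that table.
miR-140-3p: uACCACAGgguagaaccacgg
miR-497b: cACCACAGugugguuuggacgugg
Of the 21 bases of miR-140-3p, 12 are G or C. The longest run of bases that it shares with any other mature miRNA of the table is 9, with miR-7234-3p.

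The authors' raw table gives 1 background-subtracted intensity per row and array, in arbitrary units. The mean over the 710 rows ranged from 375 to 1151 between arrays. On every array the lowest value was below 0, and its size, between 32 and 88, was taken as a limit at or under which a row does not stand above the background noise of that array. Between 408 and 594 rows of an array were above this limit. Arrays give no counts, and the number of arrays limits the precision. Each mouse was taken as a replicate.

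miR-140* was bright in every mouse. Its raw intensity was 15972, 33452, 25394, 31580, 20037 and 15780 in Tff2-KO replicates 1 to 6. In WT replicates 1 to 6 it was 12903, 8490, 15708, 24330, 11915 and 26682. The genotypes overlapped, WT replicate 2 was lowest and Tff2-KO replicate 2 highest. Among the 710 rows of its array, miR-140* ranked between 3 and 8. It alone made up between 3.19% and 5.50% of the summed intensity of an array.
miR-140* rose and fell with the mean intensity of the arrays. Across the 12 arrays its log2 raw intensity and the log2 mean of the other rows had a Pearson r of 0.947 (permutation p = 1e-05, the smallest that the 100000 resamples can give) and a Spearman rho of 0.951 (permutation p = 2e-05). Without the 2 arrays farthest from the median of that mean, r was 0.968, and it was 0.929 within Tff2-KO and 0.968 within WT mice. Bright rows weigh most in such a mean, and no other bright row was compared in this way. The median row could go another way. WT replicate 2 had the lowest mean over all rows, 375, but a median of 116, and Tff2-KO replicate 3 had 785 and 88. Quantile normalization, which gives all arrays the same set of intensities, left miR-140* at only 5 different levels, from 13230.3 to 29580, each set by its rank on the array. After normalization its standard deviation over mice of a genotype was 0.26 on the log2 scale, against a median of 0.56 over all rows, and 4.51% of the rows had a smaller one. Other bright rows were alike in this. The limma standard error of the genotype difference was 0.18 for miR-140*. Among the 15 brightest rows it ran from 0.15 for miR-22 to 0.29 for miR-106b, against a median of 0.32 over all rows.

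**Figure D1:**
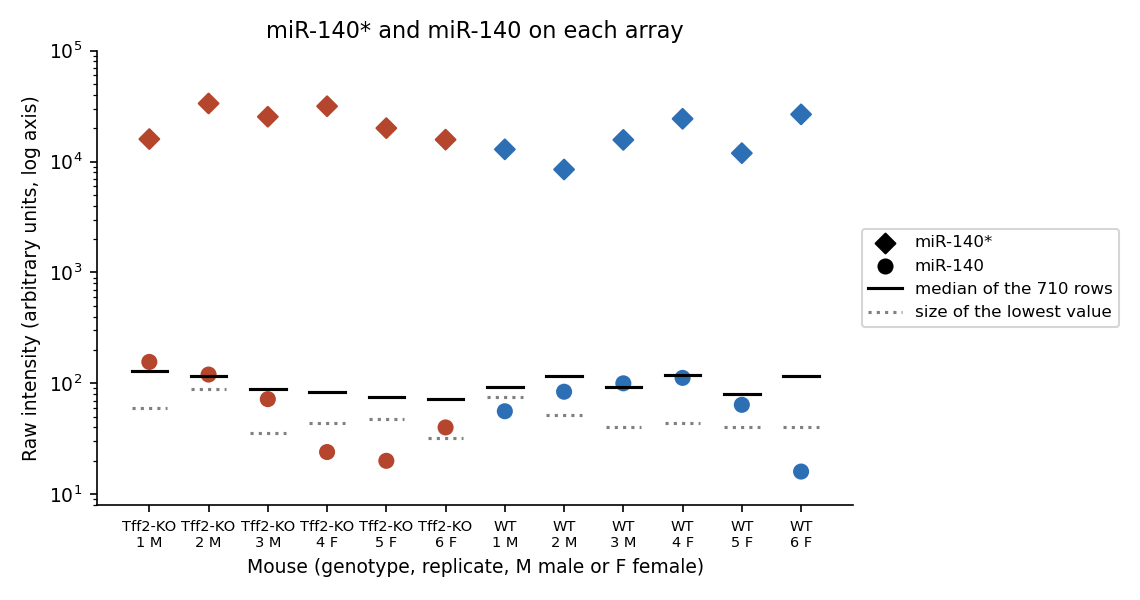
Raw intensity (log axis) of miR-140* (diamonds) and miR-140 (circles) on each of the 12 arrays, Tff2-KO in red and WT in blue, with the median of the 710 rows (black bar) and the limit of that array (dotted bar). miR-140* lies between 8490 and 33452 on all arrays, while miR-140 lies between 16 and 156, close to the median row or under it.

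miR-140, the strand annotated as the guide, was dim. Its raw intensity was 156, 120, 72, 24, 20 and 40 in Tff2-KO replicates 1 to 6. In WT replicates 1 to 6 it was 56, 84, 100, 112, 64 and 16. It stood above the limit of its array on 4 of the 6 Tff2-KO arrays and on 4 of the 6 WT arrays, and it was not above it on Tff2-KO replicates 4 and 5 and WT replicates 1 and 6. On 9 of the 12 arrays it was below the median row of the array. Its rank among the 710 rows ran from 290.5 to 660.5. Between mice of a genotype its log2 level had a standard deviation of 1.04, and 77.3% of the rows had a smaller one. This value includes the 4 arrays at the level of noise and rests on WT replicate 6, without which it was 0.66, against a median of 0.56 over all rows.
The deviations of both strands from their genotype means had a Pearson r of -0.29 over the 12 arrays after normalization, and their raw log2 intensities an r of -0.24. These points share their arrays and are given as a description. The array also gave low intensities for miR-142-3p, which is known to be abundant in blood-forming cells. It lay between -4 and 72 and was above the limit on 1 of the 12 arrays, while miR-142-5p from the same hairpin lay between 332 and 1497. miR-223, a myeloid miRNA taken in the same list, lay between 448 and 3317 and was above the limit on all 12 arrays. The log2 genotype difference of miR-142-3p was 2.58 (adjusted p = 0.335 in limma), on values mostly at the level of noise.

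Between the genotypes, the normalized level of miR-140* differed by less than the spread between mice. Its geometric mean was 21153 in Tff2-KO and 18499 in WT mice, a log2 difference of 0.19 (standard error 0.18, n = 6 mice per genotype). In limma over all 710 rows the adjusted p was 0.724, and the two-sided exact permutation p of the single value over the 924 groupings of the mice was 0.351. Of the 710 rows, 0 (0%) passed an adjusted p under 0.05 and 67 (9.44%) had an unadjusted p under 0.05, neither strand of miR-140 among them. Normalized intensities that did not overlap between the genotypes were found in 8 rows (1.13%), and those of both strands overlapped.
The size of the difference depended on the scaling of the arrays. The log2 difference of miR-140* was 0.56 without normalization between arrays, 0.70 with median scaling (limma adjusted p = 0.398) and 0.064 with cyclic loess (limma adjusted p = 0.913). It was above 0 in all 30 alternatives tried, with adjusted or exact permutation p from 0.351 to 0.929. Several of these change only the test or leave out 1 mouse, so they are not independent. Tff2-KO arrays had a mean raw intensity between 543 and 1151 and WT arrays one between 375 and 999.98, and its part in the unscaled difference was not tested.
The share of the summed intensity is free of a factor common to all rows of an array. Its lowest, median and highest values for miR-140* were 4.02%, 4.20% and 5.50% in Tff2-KO mice and 3.19%, 3.80% and 4.25% in WT mice. All 6 Tff2-KO mice thus lay above 4 of the 6 WT mice, and WT replicates 3 and 6 lay within the Tff2-KO range. The share was 4.43% ± 0.563 in Tff2-KO and 3.75% ± 0.396 in WT mice (SD, n = 6 mice each), a log2 difference of 0.24 with a two-sided exact permutation p of 0.0216. This measure was chosen after the data had been seen, and the p adjusted over the 6 measures compared in this way (both strands, their ratio with and without the limit, the share and the mean of the array) was 0.130. In limma over all 710 rows scaled to the array mean, where 86 (12.1%) had an unadjusted p under 0.05, miR-140* had an unadjusted p of 0.242 and an adjusted p of 0.575. Under that scaling the median row was lower in Tff2-KO mice, at -0.40. Without WT replicate 2 the log2 difference of the share was 0.19 and its exact permutation p 0.0541. In males the log2 difference was 0.17 and in females 0.31, with exact permutation p of 0.4 and 0.1, where 0.1 is the smallest that 3 mice against 3 allow.

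**Figure D2:**
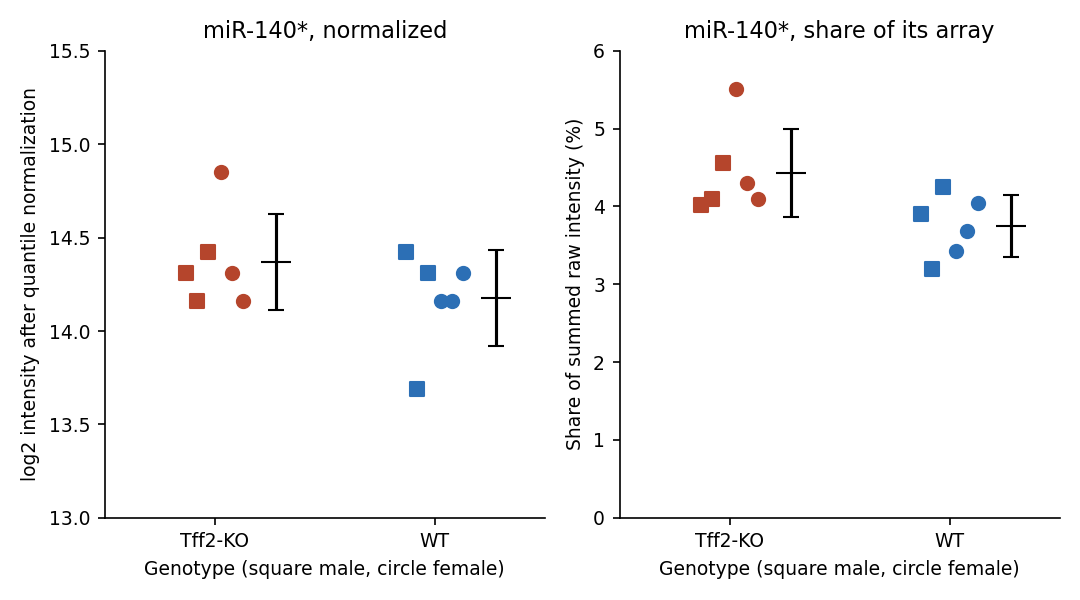
miR-140* in Tff2-KO and WT mice, as log2 intensity after quantile normalization (left) and as share of the summed raw intensity of its array in percent (right). Squares are males and circles females, and the black bars give mean and SD of 6 mice. The normalized levels overlap widely, while the shares span 4.02% to 5.50% for Tff2-KO against 3.19% to 4.25% for WT.

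For miR-140 too, the genotypes differed by less than the spread between mice. Its normalized geometric mean was 62.3 in Tff2-KO and 55.9 in WT mice, a log2 difference of 0.16 (standard error 0.56, n = 6 mice per genotype). The adjusted p was 0.932 in limma over all rows and the two-sided exact permutation p was 0.827. Since the row was above the limit on only 4 arrays of each genotype, these means include values at the level of noise. The direction was not stable, as the difference was -0.33 without WT replicate 6, whose value was the lowest of all mice, and -0.18 without normalization between arrays.

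The ratio of star to guide intensity was compared between mice, within each array. The 2 rows have different probes with unknown affinities, so the ratio is not the ratio of the amounts of the strands. A difference of the raw log ratio between mice is free of the affinities as long as both signals are proportional to the RNA. Quantile normalization sets each value by its rank on the array, so after it the affinities need not cancel. The raw ratio of miR-140* over miR-140 was 102, 279, 353, 1316, 1002 and 395 in Tff2-KO replicates 1 to 6. It was 230, 101, 157, 217, 186 and 1668 in WT replicates 1 to 6. The ratio was thus highest in WT replicate 6 and in Tff2-KO replicates 4 and 5, which are 3 of the 4 arrays with miR-140 not above the limit. Where miR-140 was not above the limit, the raw ratio divides by a value at the level of noise, and only a lower bound can be given. With the limit in place of miR-140, the ratio was at least 718 and 417 in Tff2-KO replicates 4 and 5. It was at least 170 and 667 in WT replicates 1 and 6.
After quantile normalization, the mean log2 ratio was 8.41 ± 0.969 in Tff2-KO and 8.37 ± 1.29 in WT mice (SD, n = 6 mice each). The difference of 0.036 had a standard error of 0.64, an adjusted p of 0.983 in limma over the 107 guide and star pairs of the array, and a two-sided exact permutation p of 0.957. Of the 107 pairs, 0 (0%) passed an adjusted p under 0.05, 11 (10.3%) had an unadjusted p under 0.05, and in 1 (0.935%) the ratios of the genotypes did not overlap. The log2 difference was 0.73 on raw intensities (adjusted p = 0.691 in limma) and 0.54 without WT replicate 6. With the limit in place of miR-140 values not above it, it was 0.67 (two-sided exact permutation p = 0.232). Its direction was not stable. With 1 mouse left out it was below 0 in 6 of 12 cases, down to -0.21 without Tff2-KO replicate 4, and in males only it was -0.24.

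**Figure D3:**
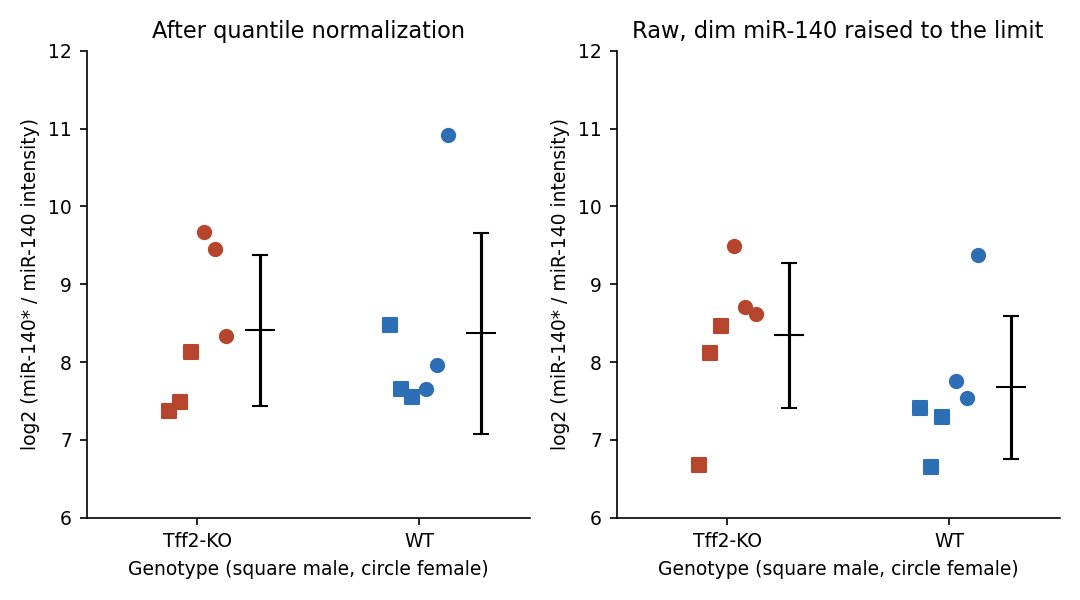
log2 ratio of miR-140* over miR-140 intensity in Tff2-KO and WT mice after quantile normalization (left) and on raw intensities with miR-140 raised to the limit of its array where it was under it (right). Squares are males, circles females, and the black bars give mean and SD of 6 mice. On the left the genotype means are 8.41 and 8.37, and WT replicate 6 stands apart at 10.92.

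Males and females were compared for each strand, and no difference passed an adjusted p under 0.05 in limma. The normalized geometric mean of miR-140 was 86.7 in males and 40.1 in females (log2 difference 1.11, standard error 0.48, n = 6 mice per sex, with the genotype in the limma fit). The two-sided exact permutation p was 0.0346, and 0.0996 when adjusted over the 6 measures. In limma the unadjusted p was 0.0413 and the adjusted p 0.607, in a comparison in which 56 of the 710 rows (7.89%) had an unadjusted p under 0.05 and 0 (0%) an adjusted one. Raw intensities of miR-140 were from 56 to 156 in males and from 16 to 112 in females, so the sexes overlapped.
In Tff2-KO mice all 3 males, from 72 to 156, lay above all 3 females, from 20 to 40. In 46 of the 710 rows (6.48%) the normalized values of the Tff2-KO males were all above those of the Tff2-KO females. The median row of the array moved in the same direction, from 88 to 128 in these males and from 72 to 84 in these females, and its part in the difference was not tested. As a percentage of the median row, miR-140 was from 81.8% to 122% in the males. In females it was 55.6% in replicate 6, and with the limit in its place at most 52.4% and 63.2% in replicates 4 and 5, where it was not above the limit. In WT mice the sexes overlapped, with 56 to 100 in males and 16 to 112 in females. The interaction of genotype and sex had an adjusted p of 0.882 for miR-140 in limma, where 1 row (0.141%) passed. Without WT replicate 6 the log2 difference between males and females was 0.70, and with values raised to the limit of their array it was 0.48.
miR-140* had a geometric mean of 19070 in males and 20520 in females (log2 difference -0.11, standard error 0.19, adjusted p = 0.866 in limma), with an interaction adjusted p of 0.965. The mean log2 strand ratio of males minus that of females was -1.22 (standard error 0.56), with a two-sided exact permutation p of 0.0498, which was 0.0996 when adjusted over the 6 measures, and an adjusted p of 0.367 in limma over the 107 pairs. That difference was -0.78 without WT replicate 6 and -0.59 with values raised to the limit of their array. Of these pairs, 14 (13.1%) had an unadjusted p under 0.05 for sex and 0 (0%) an adjusted one, and in 9 (8.41%) the Tff2-KO males all lay below the Tff2-KO females, that of miR-140 among them. The genotype difference within each sex passed for neither strand, with adjusted p of 0.996 and 0.940 in females and 0.830 and 0.824 in males for miR-140 and miR-140* in limma, where 2 rows (0.282%) passed in females and 1 (0.141%) in males.

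Against the other star and guide rows, the brightness of miR-140* is what it was chosen for, and the following values are a description. Of the 119 star rows, miR-140* was the brightest, with a geometric mean of 19781 over the 12 mice, 21.3 times that of the next one, miR-17*, at 928. The next in order were miR-467b* at 438, miR-93* at 389, miR-330* at 388 and miR-7a* at 386. A guide row of the same name was present for 107 star rows. In 52 of these pairs the guide was the brighter row on all 12 arrays and in 13 the star, and the median log2 ratio of star over guide was -1.53. The mean log2 ratio of miR-140 was 8.39, a value that includes 4 arrays with the guide not above the limit. On raw intensities with every row raised to the limit of its array, which turns a ratio with a dim guide into a lower bound, it was at least 8.01 for miR-140, followed by miR-330 at 2.86 and miR-467b at 2.82, which were named after their values had been seen. The guide of miR-330 was above the limit on 0 arrays and that of miR-467b on 7, so the order of these bounds is not that of the ratios.
In none (0) of the 13 pairs with the brighter star was the guide above the limit on all arrays, and in 6 it was above it on no array. The star rows of the other 12 had geometric means of at most 438. In 16 pairs both rows were above the limit on all arrays, and those with the highest mean log2 ratio were miR-712 at 1.11, miR-467d at 0.17, miR-28 at -0.086, miR-200a at -0.17 and miR-322 at -0.41. miR-140 is not among the 16, since its guide row was above the limit on 8 of the 12 arrays. The log2 ratio of miR-140 had a standard deviation within genotype of 1.14 against a median of 1.07 over the pairs, and without WT replicate 6 it was 0.77 against 1.08.

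**Figure D4:**
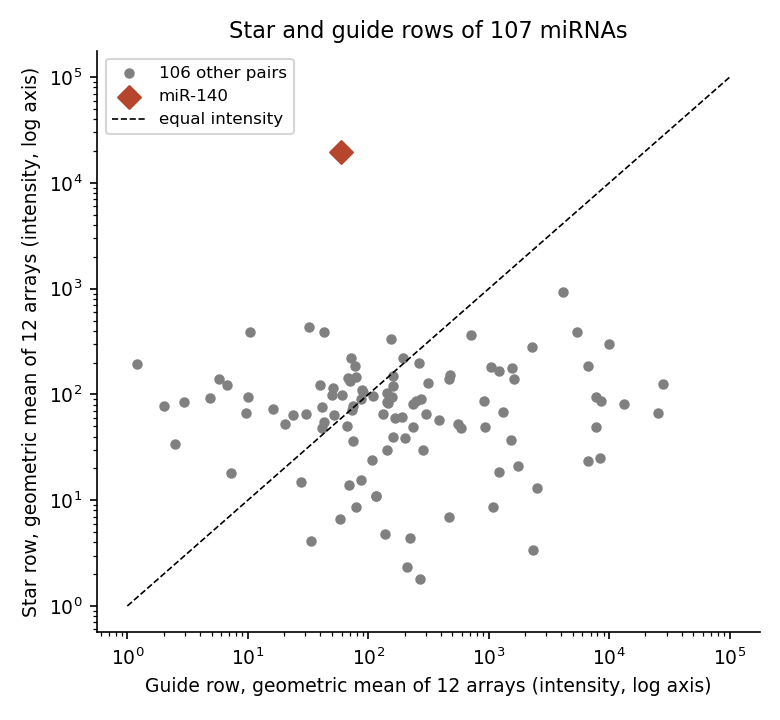
Geometric mean intensity over 12 arrays of the star row against the guide row for 107 miRNAs, on log axes after quantile normalization, with the line of equal intensity. miR-140 (red diamond) combines a guide of 59.0 with a star of 19781, and no other star row exceeds 928.

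The rows whose pattern over the mice was most like that of each strand were found among the 300 rows above the limit on all arrays, by the Pearson correlation of deviations from the genotype means over 12 arrays. For miR-140 these were miR-337-5p (r = 0.848), miR-301a (0.845), miR-103 (0.804), miR-107 (0.792) and miR-1892 (0.764). The deviations of miR-140 include its 4 arrays at the level of noise, and their spread rests on WT replicate 6. The sequences of miR-103 and miR-107 are shown, with bases 2 to 8 in capitals, because they are nearly identical and the values of these 2 rows are uncertain for that reason.
miR-103-3p: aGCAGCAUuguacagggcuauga
miR-107-3p: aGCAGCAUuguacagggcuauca
The sequences differ by 1 substitution, G22C, counted from the 5′ end with miR-103-3p first. On raw intensities the correlation with miR-140 was 0.856 for miR-337-5p and 0.657 for miR-301a but 0.185 for miR-103 and 0.412 for miR-107, so that the likeness of these last rows depends on the normalization. For miR-140* the closest rows were miR-466e-3p (r = 0.804), miR-142-5p (0.741), miR-466c-5p (0.656), miR-1933-3p (0.641) and miR-132 (0.637). On raw intensities these 5 rows ranked 101, 88, 49, 150 and 112 among the 299 candidates, so this order too depends on the normalization, which left miR-140* at only 5 levels. Of these, miR-466e-3p and miR-466c-5p come from the large miR-466 family of the Sfmbt2 intron, and miR-142-5p is expressed in blood-forming cells. None of the 10 rows differed between the genotypes at an adjusted p under 0.05 in limma, the lowest adjusted p being 0.387 for miR-337-5p. All points share their arrays and the normalization, and the correlations carry no test.

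The miRNAs of red cells were measured in every mouse. miR-486, miR-16, miR-451 and miR-144, which are abundant in erythroid cells, were above the limit on all arrays. miR-486 and miR-16 were the brightest and the third brightest row, while miR-451 and miR-144 ranked only 44 and 76. Together the 4 rows made up 11.6% to 14.3% of the summed intensity in Tff2-KO mice and 11.5% to 16.3% in WT mice. Most of this came from miR-486 and miR-16, with geometric means of 36528 and 27879, against 1671 for miR-451 and 655 for miR-144. miR-122, the main miRNA of the liver, ranged from 52 to 7646 between mice.
Other miRNAs known from cartilage and mesenchymal tissue were taken as a list. Of its 8 rows, 4 were above the limit on all arrays and 0 passed for the genotype in limma. The median log2 difference was 0.25 over the list and 0.013 over all rows, and 6 of the 8 rows were higher in Tff2-KO mice, as were 50.4% of all rows. Of the 4 rows above the limit on all arrays, 2 were higher and their median was -0.013, while the other 4 rows, which include values at the level of noise, were all higher. miR-455, which lies in a cartilage collagen gene and is also driven by Sox9, had raw intensities from 80 to 204, and its star miR-455* from -16 to 100. miR-214, which is made from an RNA antisense to Dnm3, had raw intensities from 232 to 656. miR-145, which targets Sox9, ran from 76 to 520, and miR-675-5p, which is made from the imprinted RNA H19, from 72 to 152. miR-199a-3p was between 56 and 140 and miR-199a-5p between 12 and 168, while miR-675-3p was between 32 and 188. The summed raw intensity of the list was 824 to 1880 in Tff2-KO and 720 to 1640 in WT mice.
The nearest miRNA genes to Mir140 with a row on the array, in the gene order of RefSeq, were Mir1966 on one side, the third miRNA gene before Mir140, and Mir1967 on the other, the 11th after it. miR-1966 had raw intensities from 60 to 144 and miR-1967 from 68 to 192. Their log2 differences between Tff2-KO and WT mice were -0.058 and -0.41 (standard errors 0.22 and 0.21, adjusted p 0.937 and 0.532 in limma). The host gene Wwp2 was not measured.

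**Figure D5:**
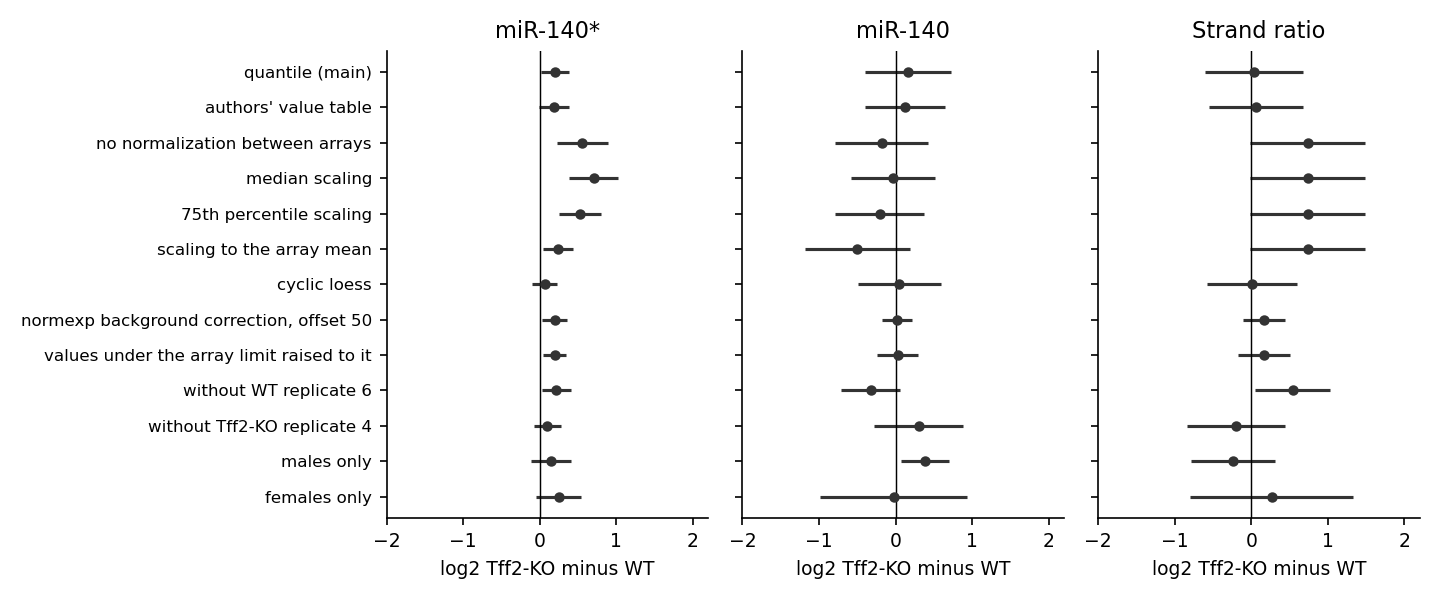
Difference between Tff2-KO and WT mice on the log2 scale for miR-140*, miR-140 and their ratio under quantile normalization and 12 alternatives, with limma standard errors as bars. miR-140* is above 0 in each and runs from 0.064 to 0.70, while miR-140 and the ratio lie on both sides of 0.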

How the data were processed

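Intensities of 710 miRNAs and star sequences were taken for 12 arrays. The authors extracted the median signal of each of 7 spots, subtracted the background and took the median over the spots, and the deposited raw table holds these linear intensities without normalization between arrays. The deposited value table holds intensities that the authors had quantile normalized. The software version was not given in the sources used here.

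Quantile normalization of the raw table was done in limma 3.58.1 under R 4.3.3. Results under 1, which were 4.30% of the values, were set to 1 before log2 was taken. Genotypes were compared with lmFit and eBayes over all 710 rows, and over 107 pairs of rows named X and X* for the log2 ratio of star over guide, with Benjamini-Hochberg adjustment over each table and a threshold of 0.05. Single values were also tested by exact permutation over mice. The scripts were tested on simulated data. The members, lists and limits were chosen with earlier results of these data known. The size of the lowest value of an array served as the limit of background. Named are both strands, miRNAs with the seed of miR-140*, the cartilage list, and the 5 rows closest to each strand. The 5 pairs with the highest ratio among those above the limit and the neighbouring miRNA genes are named too. Beside these, the red cell and myeloid miRNAs, miR-122, and some of the brightest rows and star rows are named. Lists of platelet, lymphoid, muscle and brain miRNAs were also taken and are not given here. Seeds were compared only for miR-140-3p, whose mature sequence the RefSeq table used here (GRCm38.p6) gave. Rows that share the seed of the guide strand, miR-140-5p, were not searched for, and the array may hold some.

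Alternatives were the authors' value table, no normalization, and median, 75th percentile and array mean scaling. Cyclic loess, normexp with an offset of 50, a pseudocount of 16 and raising values to the limit were tried too. Others took only rows brighter than the median, left out each mouse or took each sex alone. The rest were array weights, sex in the model, the replicate number as a block, a robust trend on intensity and an equal-variance t-test. Array mean scaling, raising values to the limit and the spread without each mouse were added after the data had been seen. Python 3.11.15 and matplotlib 3.10.9 made the figures.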

Additional observations from a re-analysis of the deposited data

Results flagged for a closer look

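Of 10 groups of 6 mice (both strands, their ratio, the share of miR-140* and the mean of the array, in each genotype), 3 had a value far from the others, where chance gives about 1 in 20. In WT replicate 6 the normalized intensity of miR-140 was 10.5, with the other WT mice between 61.3 and 108. The log2 ratio of star over guide of the same mouse was 10.92, with the others between 7.56 and 8.48, and this value shares the miR-140 intensity. In WT replicate 2, the array with the lowest mean raw intensity, the normalized intensity of miR-140* was 13230.3, with the others between 18282 and 21940. Normalization sets these levels by rank, which was 8 on this array and 5 to 7 on the other WT arrays. The chance rate therefore does not apply to this value. By the same rule the share of miR-140* on this array, 3.19%, was not far from those of the other WT mice.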

How the results depend on the processing

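The genotype difference of miR-140* was above 0 in all 30 alternatives, from 0.064 to 0.70 on the log2 scale, and passed an adjusted p under 0.05 in none (0). Not all alternatives could change a difference. Sex in the model, the replicate block, the robust trend, the t-test and the exact permutation test change only the error or the test. Raising values to the limit and dropping dim rows left miR-140* at 0.19. Leaving out 1 mouse keeps most of the same mice. The genotype difference of miR-140 changed direction in 8 of 29 alternatives. It was -0.18 without normalization between arrays, -0.033 with median scaling, -0.21 with 75th percentile scaling, -0.50 with scaling to the array mean, -0.068 with array weights and -0.023 in females only. With 1 mouse left out it ranged from -0.33 to 0.37, and that of miR-140* from 0.096 to 0.25. The genotype difference of the log2 strand ratio changed direction in 7 of 29 alternatives. It ranged from -0.21 to 0.54 with 1 mouse left out, was -0.24 in males only, and was 0.73 under each scaling by 1 factor per array. Only rows brighter than the median could not include miR-140. In this balanced design the replicate block cannot change a difference. Those of miR-140*, miR-140 and the ratio stayed at 0.19, 0.16 and 0.036 (adjusted p = 0.774, 0.928 and 0.985 in limma). The block changed no call.
The number of rows past an adjusted p under 0.05 between genotypes was 4 with normexp, 6 with only rows brighter than the median, 2 with a robust intensity trend, 2 in males only, 3 in females only and 0 otherwise, neither strand of miR-140 among them, and the number of pairs was 0 throughout. The equal-variance t-test, run here on the normalized log2 values, gave 70 rows at an unadjusted p under 0.05 and 0 adjusted. For the interaction of genotype and sex, the number of rows was 0 with the authors' value table, without normalization, with scaling to the array mean and with values raised to the limit, and from 0 to 2 with 1 mouse left out. The interaction of miR-140* changed sign to 0.87 without normalization between arrays, and with 1 mouse left out it ranged from -0.31 to 0.12, that of miR-140 from -0.10 to 1.45 and that of the ratio from -1.58 to 0.070. The number of pairs for that interaction was 1 with values raised to the limit and from 0 to 3 with 1 mouse left out. Same-numbered mice of both genotypes did not deviate together, with r from -0.17 to 0.106 and 0 of 6 numbers matching best with their own. The cause of these shifts was not tested.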
